A study of Equus caballus with 4 samples.

Results

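SLC2A1, GAPDH, SDHB, CS and ATP5F1B, which serve glucose uptake, glycolysis and mitochondrial energy production, were followed in equine sarcoids and in skin of the same horses. Their probes were all non-control probes of the array whose accession is a RefSeq transcript of these 5 horse genes. There were 28 such probes among 43603, and the 5 genes were among the 1031 gene symbols that could be given to probes. GAPDH had 13 probes, ATP5F1B had 11, SLC2A1 had 2, and SDHB and CS had 1 each. All 28 passed the filter on dim probes, which keeps a probe that exceeded background clearly (Agilent's flag) on 3 or more of the 4 arrays in the sarcoid or the skin channel.

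Sarcoids are locally invasive fibroblastic tumours of horse skin. The sarcoid of each of 4 horses was labelled with Cy3 and hybridised to a two-colour Agilent array together with Cy5-labelled skin taken away from the tumour of that horse. The groups were therefore 4 sarcoids and 4 skin samples, paired by horse, with no treatment of the animals named in the labels used here. The descriptions of 3 samples mention embryonic stem cells, against their tissue fields, and the tissue fields were followed. The dyes were swapped on 0 of the 4 arrays, and a dye effect on a gene cannot be told apart from a difference between tissues. A positive log2 ratio means a higher level in the sarcoid. By marker genes, 9 of 9 measured fibroblast markers were higher in the sarcoids and 4 of 5 measured keratinocyte markers were lower. Of all tested genes with a symbol, 7.59% were higher and 12.0% lower. The background model was also fitted to all spots, outlier spots being left out after that fit rather than before it. There, 3 of 9 fibroblast markers were higher and 1 of 5 keratinocyte markers lower, and the direction of all 14 was the same.

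The share of spots well above background ran from 67.2% (sarcoid of horse 4) to 80.7% (skin of horse 3), and 0 spots were saturated. The log2 ratios of any pair of arrays correlated at 0.642 to 0.766 over the tested probes. Precision is limited by having 4 arrays, 1 for each horse. In whole tissue, fewer cells of a type and less RNA per cell cannot be told apart.

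Glucose enters most cells through facilitative transporters, of which SLC2A1 (GLUT1) is the widespread basal form, and is split to pyruvate by the enzymes of glycolysis, GAPDH among them. In mitochondria, acetyl groups made from pyruvate are joined to oxaloacetate by citrate synthase (CS), the entry step of the tricarboxylic acid cycle. SDHB is the iron-sulfur subunit of succinate dehydrogenase, which belongs both to that cycle and, as complex II, to the respiratory chain. ATP5F1B is the catalytic beta subunit of ATP synthase, where the chain's proton gradient drives ATP synthesis. In skin, the epidermis is known for active glycolysis and for SLC2A1 in its basal layer, and GAPDH is often used as a reference transcript.

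Among the 5 genes, SLC2A1 and SDHB fell in the sarcoids, to 0.538 and 0.561 of the skin level, while CS, ATP5F1B and GAPDH did not pass the test (limma, Benjamini-Hochberg adjusted p under 0.05 over all targets). Of the 19607 targets tested, 9.90% were lower and 5.84% higher in the sarcoids by the same rule, so 2 of 5 lower stands beside a background of about 1 in 10. These calls, 1941 lower and 1146 higher, numbered 147 and 93 with the background model fitted to all spots, where 0 of the 5 genes passed. Among the 791 targets with a gene symbol, 12.0% were lower and 7.59% higher. The median log2 ratio over all targets was 0.00354.

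**Figure D1:**
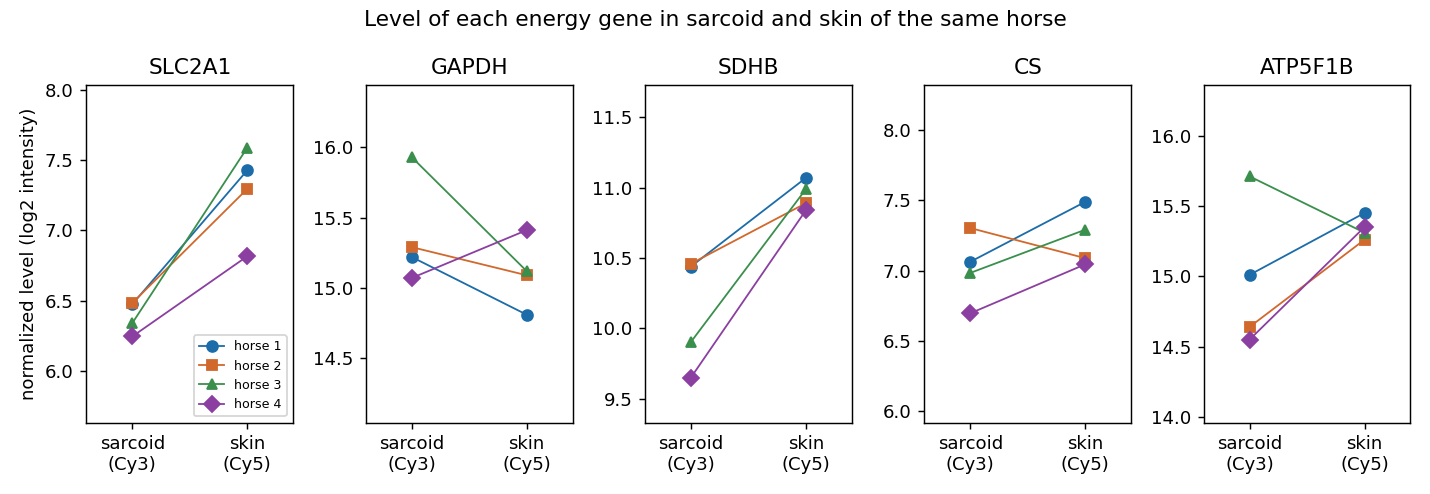
Normalized log2 intensity (vertical axes, each spanning the same range of log2 units) of the probe representing each gene in the sarcoid (Cy3, left) and the skin (Cy5, right), with a line for each of the 4 horses. For SLC2A1 and SDHB every sarcoid lies below every skin sample, while the groups overlap for GAPDH, CS and ATP5F1B.

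SLC2A1 was represented by probe A_69_P003526. Its normalized log2 level was 6.47, 6.48, 6.34 and 6.25 in the sarcoids of horses 1 to 4, against 7.43, 7.30, 7.59 and 6.82 in their skin. Every sarcoid lay below every skin sample, as was the case for 13.1% of all targets, while 8.07% lay wholly above. The log2 ratios were -0.952, -0.811, -1.25 and -0.571, with a mean of -0.895 ± 0.282 (SD, n = 4; limma adjusted p = 0.0168) and a 95% interval of -1.27 to -0.52. Of all targets, 8.46% had a lower ratio.

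The signal behind that fall was dim. The unnormalized sarcoid signals of the probe were 104, 89, 93 and 71 over local backgrounds of 24 to 25, and those of the skin were 160, 185, 224 and 135 over 50 to 57. The sarcoid signal of horse 4 was not well above background, whereas the other 3 sarcoids and all 4 skin samples were. The size of its ratio differed between settings. It was -0.42 with the background model fitted to all spots (limma adjusted p = 0.324), -0.864 with no background correction and -1.32 with an offset of 16. It was -2.35 with Agilent's processed signals, which differ in dye normalization as well as in background. The call was also lost without horse 1 (limma adjusted p = 0.076) and without horse 2 (limma adjusted p = 0.0624).

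A second probe of the same transcript, A_69_P005996, gave a smaller difference. Its log2 ratios were -0.305, -0.0973, -0.41 and -0.00859 in horses 1 to 4, with a mean of -0.21 ± 0.18 (SD, n = 4; limma adjusted p = 0.327 over all probes). Its sarcoid signals of 112, 86.5, 103 and 78 stood against skin signals of 112, 95.5, 132 and 88. Both probes were below 0 in all 4 horses, and the first minus the second was -0.648, -0.713, -0.836 and -0.562 on the log2 scale. SLC2A1 therefore fell by 1 of its 2 probes. With the mean of both the ratio was -0.55 (limma adjusted p = 0.0492), and with the dimmer probe alone the call was lost. Over all 33864 probes tested, 11.2% were lower and 6.97% higher.

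**Figure D2:**
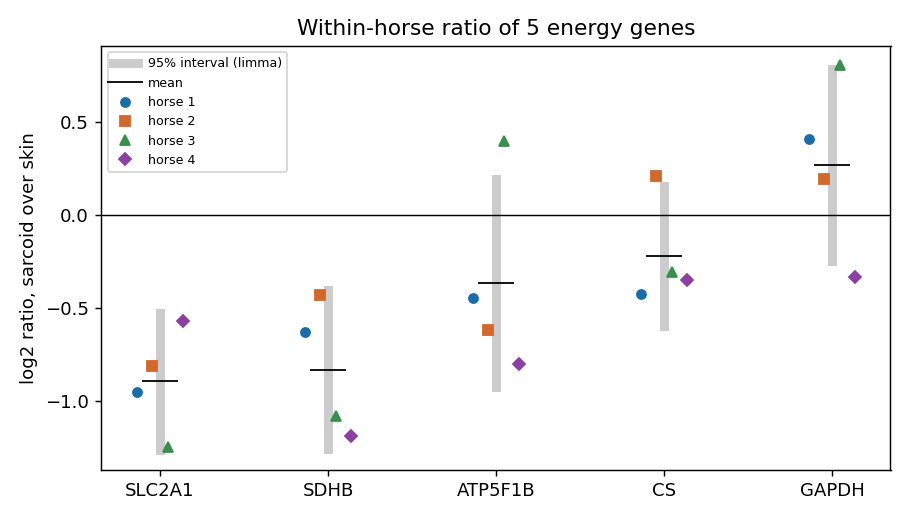
Log2 ratio of sarcoid over skin (vertical axis) for each gene, with a point for each of the 4 horses, a black bar for the mean and a grey bar for the 95% interval from limma. SLC2A1 and SDHB are below 0 in all 4 horses, and the other genes have 1 horse on the opposite side of 0.

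Of the 29 genes listed for glucose transport and entry, 6 were on the array by name and 5 were measured. Beside SLC2A1, the transporters SLC5A1 and SLC2A5 fell, 0 of the 5 rose and 2 did not pass, with a list median of -0.90. Over all targets with a symbol, 12.0% were lower and 7.59% higher. SLC5A1, which carries glucose into cells together with sodium, had log2 ratios of -4.07, -3.96, -4.28 and -3.94 and a mean of -4.06 ± 0.16 (SD, n = 4; limma adjusted p = 0.000135). SLC2A5, mainly a fructose transporter, had -2.85, -3.06, -3.21 and -2.83, with a mean of -2.99 ± 0.18 (limma adjusted p = 0.000266). The 4 horses lay within 0.4 log2 units of each other in both, and the 2 probes of SLC2A5 were at -2.99 and -2.83. With the background model fitted to all spots their ratios were -2.62 and -1.73 and neither passed (limma adjusted p = 0.162 and 0.216). SLC2A4, the insulin-regulated transporter GLUT4, was at -0.14 ± 0.29, and HK2, a hexokinase that traps glucose in the cell, was at -0.05 ± 0.15.

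Most measured keratinocyte and gland markers were lower in the sarcoids, as were these transporters. Whether both varied together over the horses was not tested. The summed normalized level of the 5 measured keratinocyte markers was 1475 to 5456 in the sarcoids, against 42200 to 144900 in skin. That of the 5 measured gland markers was 4127 to 6958 in the sarcoids, against 300500 to 419600 in skin, with 4 of 5 lower. Such sums weigh the brightest genes most. The gland sum is mainly LATH, with a mean log2 intensity of 15.15, the next being HSD3B2 at 10.6. Of the keratinocyte list's 24 genes and the gland list's 10, 5 each could be measured, and none of these was below background on every sarcoid array. Both measured erythrocyte markers also fell, with a summed level of 217.7 to 286.3 in the sarcoids, against 539.4 to 614.9 in skin. Summed fibroblast markers were at 908300 to 1277000 in the sarcoids, against 152400 to 252600 in skin. Of the other marker lists, 2 of 5 melanocyte markers were lower, TYRP1 among them, as was 1 of 4 skeletal muscle markers, MB. In all 4 sarcoids TYRP1 and MB were not well above background. A single marker each of endothelium (VCAM1) and leukocytes (CSF1R) was higher, of 5 and 6 measured, and no adipocyte marker was measured. Over all targets with a symbol, 12.0% were lower and 7.59% higher. Single calls in such short lists do not show a change of a cell type. Among the gland markers 1 was lower with the background model fitted to all spots, and 0 markers of erythrocytes, melanocytes, muscle, endothelium and leukocytes were called. The part of cell makeup in the fall of these transporters, and in the falls of SDHB, MDH2, COX4I2 and HSPA9 given further on, was not tested.

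GAPDH, which oxidises glyceraldehyde 3-phosphate in the middle of glycolysis, showed no difference past the test with any of its 13 probes. The brightest probe, A_69_P002684, had log2 levels of 15.22, 15.29, 15.93 and 15.07 in the sarcoids of horses 1 to 4, against 14.81, 15.09, 15.12 and 15.41 in skin. The sarcoid was higher in horses 1 to 3 and lower in horse 4, and the groups overlapped. The log2 ratios were 0.409, 0.196, 0.808 and -0.335, with a mean of 0.27 ± 0.48 (SD, n = 4; limma adjusted p = 0.433). The 95% interval of -0.247 to 0.786 holds differences of either sign, so a difference within these bounds is not shown to be absent. The sign depended on the scaling: each array centred on its median without loess put GAPDH at -0.41, also short of the threshold. GAPDH has retrocopies in many mammals, and whether a probe also binds such a copy was not tested.

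The GAPDH probes fell into a brighter set of 7 and a dimmer set of 6, a grouping made after their values were seen, and the sets differed in horse 4. In horses 1, 2 and 3 the brighter probes had log2 ratios of 0.293 to 0.441, 0.15 to 0.276 and 0.66 to 0.839, and the dimmer ones 0.371 to 0.506, 0.305 to 0.517 and 0.542 to 0.611. In horse 4 the brighter probes were at -0.385 to -0.292 and the dimmer ones at -1.89 to -0.985. Dimmer minus brighter probes averaged 0.0925, 0.257, -0.182 and -1.34 in horses 1 to 4. All 13 probes had the same sign within each horse, positive in 3 and negative in horse 4.

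The gap in horse 4 lay mostly in the sarcoid. Probe A_69_P004889 of the dimmer set had unnormalized sarcoid signals of 3419, 2574, 4274.5 and 355 in horses 1 to 4, against skin signals of 2413.5, 3396, 4348 and 3020. The sarcoid of horse 4 thus stood far below the other 3 sarcoids, while its skin signal was within the range of the other skin samples. On the normalized log2 scale the probe was at 11.88, 11.84, 12.29 and 8.99 in the sarcoids, against 11.40, 11.32, 11.73 and 10.88 in skin, so horse 4 was the lowest in both tissues. With the brightest probe the same sarcoid had a signal of 24757.5, close to the 26287.5 of horse 2. Positions of the probes along the transcript were not used here.

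**Figure D3:**
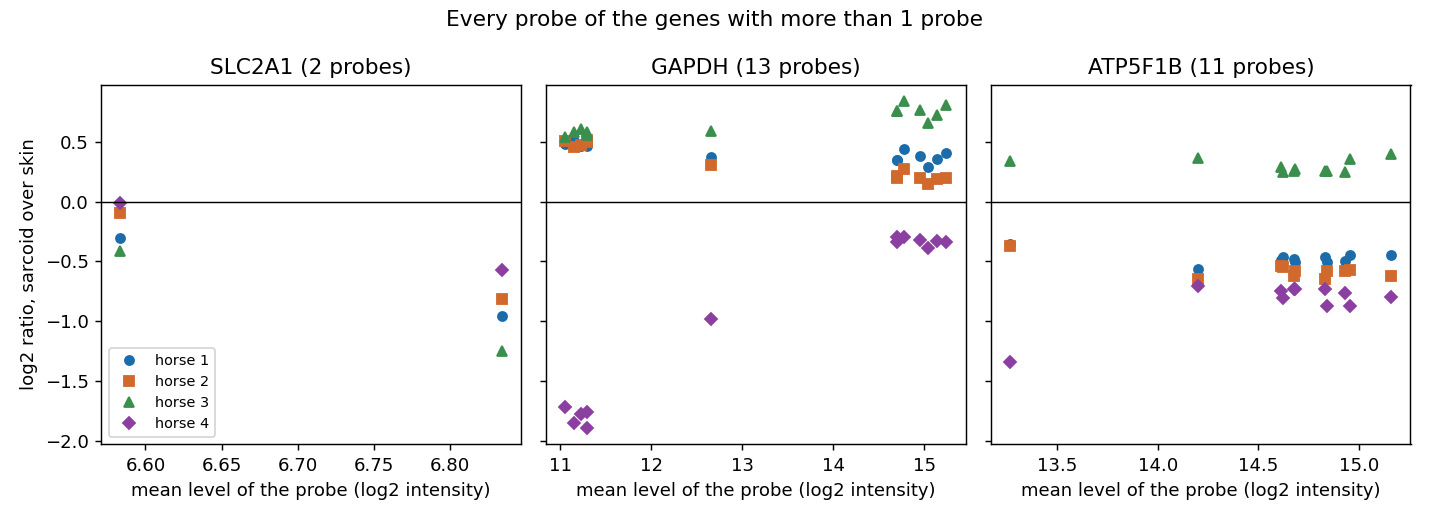
Log2 ratio of sarcoid over skin (vertical axis) against the mean normalized log2 level (horizontal axis) for every probe of SLC2A1, GAPDH and ATP5F1B, with a symbol and colour for each of the 4 horses. The dimmer GAPDH probes of horse 4 lie between -1.89 and -0.985, below its brighter probes at -0.385 to -0.292.

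Genes of glycolysis and lactate handling gave 1 call. Of 51 listed genes 13 were on the array by name and 10 were measured, of which 1 rose, 0 fell and 9 did not pass, with a median log2 ratio of 0.11. That 1 in 10 is close to the 7.59% higher among all targets with a symbol. The gene that rose was SLC16A1, the monocarboxylate transporter MCT1, which carries lactate and pyruvate across the cell membrane. Its log2 ratios were 2.61, 1.66, 1.62 and 0.318, with a mean of 1.55 ± 0.94 (SD, n = 4; limma adjusted p = 0.046). The 2 probes of SLC16A1 were at 1.55 and 0.444, and the call was lost with their mean (1.00, limma adjusted p = 0.0695), on median centring, without the filter on dim probes and without horse 1, 2 or 3. Its ratio was 1.00 with the background model fitted to all spots (limma adjusted p = 0.324).

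No other gene of this list passed the test. ENO1 (enolase, a late step of the pathway) was at 0.27 ± 0.53 (SD, n = 4), with its 5 probes between 0.254 and 0.342. LDHA and LDHB, the subunits of lactate dehydrogenase, were at 0.12 ± 0.23 and 0.38 ± 0.66, and pyruvate kinase PKM was at 0.04 ± 0.39. These 3 were chosen for mention after their values were seen. The mean log2 ratios of the 9 genes that did not pass ran from -0.168 to 0.38, and 8 of the 9 were above 0. These signs depend on the scaling, since the list median was -0.19 on median centring without loess. With spreads over horses such as 0.53 (ENO1) and 0.66 (LDHB), a difference in these genes is not shown to be absent.

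CS was measured by a single dim probe. Its log2 levels were 7.06, 7.30, 6.98 and 6.70 in the sarcoids of horses 1 to 4, against 7.49, 7.09, 7.29 and 7.05 in skin. Horse 2 was higher in the sarcoid and the other 3 horses were lower, so the groups overlapped. The log2 ratios of -0.426, 0.213, -0.307 and -0.349 averaged -0.22 ± 0.29 (SD, n = 4; limma adjusted p = 0.388), with a 95% interval of -0.594 to 0.16. Unnormalized signals were 149.5, 146, 134 and 84 in the sarcoids, against 161, 168, 179.5 and 153.5 in skin.

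SDHB, also with a single probe, fell. Its log2 levels were 10.44, 10.46, 9.90 and 9.65 in the sarcoids of horses 1 to 4, against 11.07, 10.89, 10.99 and 10.84 in skin. The highest sarcoid lay below the lowest skin sample, as was the case for 13.1% of all targets. The log2 ratios were -0.631, -0.428, -1.08 and -1.19, with a mean of -0.83 ± 0.36 (SD, n = 4; limma adjusted p = 0.0311) and a 95% interval of -1.26 to -0.405. The probe was well above background in all 8 channels, with sarcoid signals of 1279.5, 1010, 873 and 572 and skin signals of 1890.5, 2471, 2520 and 2976.

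The direction of SDHB was the same under every setting tried, but its call was not. The limma adjusted p was 0.0875, 0.0977 and 0.0841 without horses 1, 3 and 4, 0.0565 with Agilent's processed signals and 0.158 with the background model fitted to all spots. The skin levels of SDHB varied little between horses (SD 0.104), and the sarcoid levels varied more (SD 0.402). A larger spread among sarcoids than among skin samples was seen for 76.9% of all targets.

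Genes of pyruvate entry and the tricarboxylic acid cycle were few. Of 45 listed genes 5 were on the array by name and 4 were measured, of which 2 fell, 0 rose and 2 did not pass, with a median of -0.52. The share of all targets with a symbol that were lower was 12.0%. MDH2, the mitochondrial malate dehydrogenase that regenerates oxaloacetate for citrate synthase, fell with log2 ratios of -0.663, -1.10, -0.986 and -1.19. The mean was -0.98 ± 0.23 (SD, n = 4; limma adjusted p = 0.00946), and its 5 probes lay between -1.06 and -0.94. MDH2 passed under all 14 processing alternatives and with each horse left out in turn, the highest limma adjusted p being 0.0481. With the background model fitted to all spots it was the only measured gene of the energy and hypoxia lists that passed. IDH1, the cytosolic isocitrate dehydrogenase, was at -0.21 ± 0.53.

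ATP5F1B did not pass with any of its 11 probes. The brightest, A_69_P107894, had log2 levels of 15.01, 14.64, 15.71 and 14.55 in the sarcoids of horses 1 to 4, against 15.45, 15.26, 15.31 and 15.35 in skin. The skin samples lay within 0.2 log2 units (SD 0.0822), while the sarcoids spread over more than 1 unit (SD 0.527) on both sides of them. The log2 ratios were -0.444, -0.619, 0.401 and -0.799, with a mean of -0.37 ± 0.53 (SD, n = 4; limma adjusted p = 0.332) and a 95% interval of -0.927 to 0.197. The probe means ran from -0.431 to -0.365, and all 11 probes were negative in horses 1, 2 and 4 and positive in horse 3. On median centring without loess, which moved the median of all targets to -0.0976, ATP5F1B was at -1.04 and passed (limma adjusted p = 0.019). Without horse 3 it was at -0.62 (limma adjusted p = 0.0735).

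The dimmest ATP5F1B probe also stood apart in horse 4. A_69_P002776 was at -1.34 in that horse, where the other 10 probes lay between -0.873 and -0.703. In horses 1, 2 and 3 the same probe was above the mean of the others by 0.133, 0.221 and 0.0464.

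COX4I2, an isoform of a subunit of cytochrome c oxidase, was the only other gene measured of the 95 listed for the respiratory chain and ATP synthase. It fell with log2 ratios of -1.84, -1.03, -2.12 and -1.69, a mean of -1.67 ± 0.46 (SD, n = 4; limma adjusted p = 0.0065). With the background model fitted to all spots it was at -1.07 (limma adjusted p = 0.226). Of 41 genes listed for mitochondrial biogenesis and related functions 3 were measured, of which 1 fell and 2 did not pass. Lower calls made up 12.0% of all targets with a symbol. HSPA9, the chaperone mortalin that draws proteins into mitochondria, fell by a mean of 0.77 on the log2 scale, with ratios of -1.16, -0.797, -0.729 and -0.412 (limma adjusted p = 0.0289). Its 7 probes lay between -0.786 and -0.525. The call of HSPA9 was lost without horse 1, 2 or 3, with Agilent's processed signals (limma adjusted p = 0.0687), with separate channels and no replicate block, and with the background model fitted to all spots. SOD2, the mitochondrial superoxide dismutase, was at -0.13 ± 1.23, and CPT1A, which admits fatty acids to mitochondria, was at -0.40 ± 0.35.

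**Figure D4:**
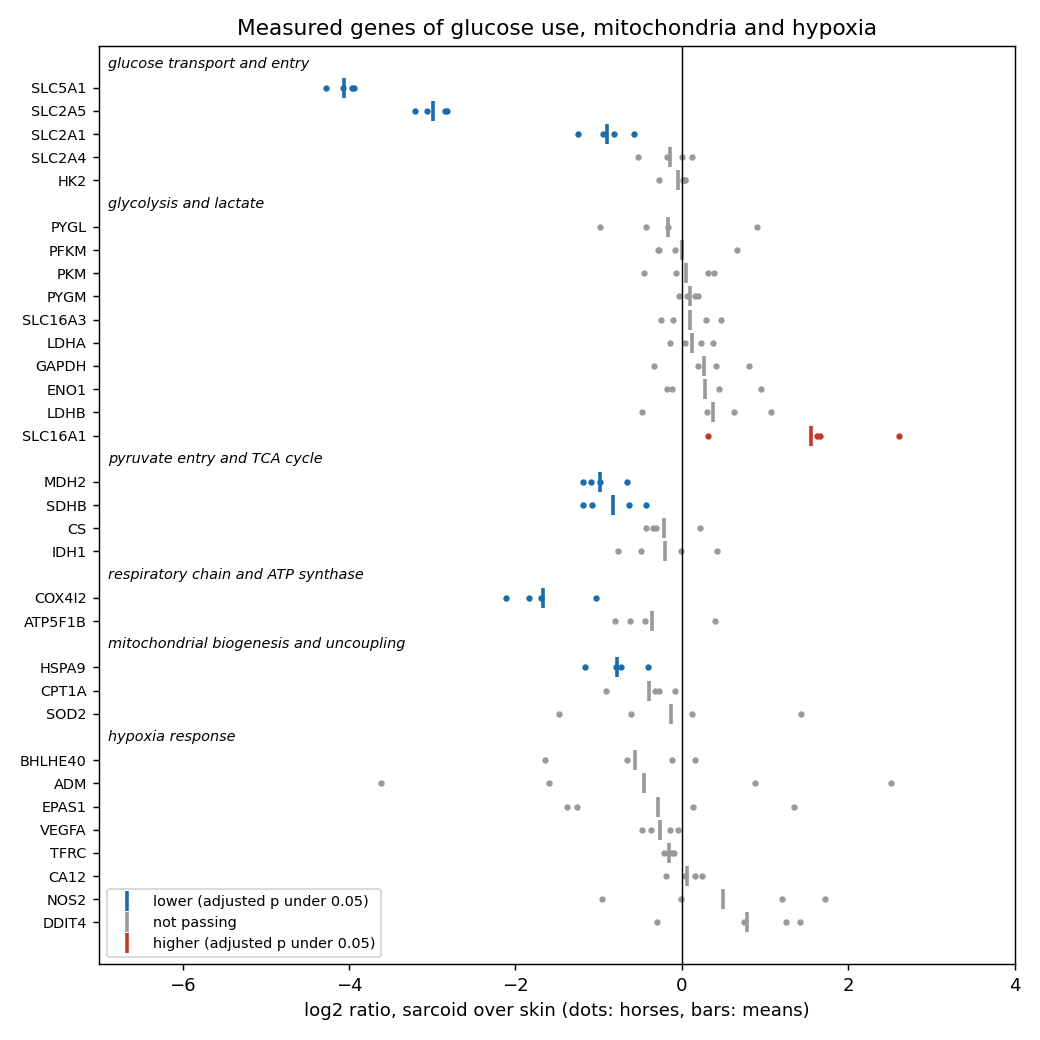
Log2 ratio of sarcoid over skin (horizontal axis) of the 32 measured genes of 6 lists, with a dot for each horse and a bar for the mean, coloured by the limma call. The 7 genes that fell are SLC5A1, SLC2A5, SLC2A1, MDH2, SDHB, COX4I2 and HSPA9, and SLC16A1 is the 1 gene that rose.

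Over the 6 lists together, 38 of 294 genes were on the array by name and 32 were measured, of which 7 fell and 1 rose, with a median log2 ratio of -0.16. Without the 5 genes described here the counts were 5 lower and 1 higher of 27, with a median of -0.14. Among all targets with a symbol 12.0% were lower and 7.59% higher, and their median was -0.07. With the background model fitted to all spots 1 of the 32 fell and 0 rose. Without horse 1 the counts were 4 lower and 0 higher, without horse 2 they were 5 lower and 0 higher, and on median centring 0 were higher.

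The hypoxia response list holds regulators of the response to low oxygen and genes that low oxygen is known to induce. It gave 0 calls among 8 measured of 33 (limma), where 12.0% of all targets with a symbol were lower and 7.59% higher. DDIT4 alone in the list had an unadjusted limma p under 0.05. DDIT4, an inhibitor of the growth kinase mTORC1, was at 0.78 ± 0.77 (SD, n = 4; limma adjusted p = 0.155), with 1 horse below 0. ADM (adrenomedullin, a vasodilator peptide) had log2 ratios of -1.60, 0.884, -3.62 and 2.51 in horses 1 to 4. EPAS1, a hypoxia-inducible transcription factor, had 0.132, 1.35, -1.26 and -1.38. These 2 genes differed by several log2 units between horses in opposite directions. NOS2 was at 0.49 ± 1.21, BHLHE40 at -0.57 ± 0.80, VEGFA (an angiogenic factor) at -0.26 ± 0.20, TFRC (the transferrin receptor) at -0.15 ± 0.05 and CA12 (a carbonic anhydrase) at 0.06 ± 0.19. The last 3 were dim, with mean log2 intensities of 6.53, 6.37 and 6.33. VEGFA and TFRC were well above background in 2 of 4 sarcoids each, and CA12 in 3. Their small ratios and spreads therefore do not show that a difference is absent.

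Members were set against GAPDH within each horse, a difference from which any shift of a whole array drops out. SLC2A1, SDHB and ATP5F1B were lower than GAPDH in all 4 horses by their brightest probes. By the mean log2 ratio, 75.7% of all targets were lower than GAPDH, so a lower mean is not particular to these genes. The share of targets below GAPDH in all 4 horses is not given here. SLC2A1 minus GAPDH was -1.36, -1.01, -2.05 and -0.236 in horses 1 to 4, a mean of -1.16 ± 0.76 on the log2 scale (SD, n = 4). SDHB minus GAPDH was -1.04, -0.624, -1.89 and -0.856, a mean of -1.10 ± 0.55. ATP5F1B minus GAPDH was -0.852, -0.815, -0.407 and -0.464, a mean of -0.63 ± 0.23.

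By the brightest probes, the spread of ATP5F1B around GAPDH (SD 0.231) was smaller than that of its own ratio (SD 0.531). With the mean over probes, ATP5F1B minus GAPDH ranged more widely, at -0.885, -0.894, -0.376 and 0.118 in horses 1 to 4. By the brightest probes again, CS minus GAPDH was -0.835, 0.0175, -1.11 and -0.0137, a mean of -0.49 ± 0.58. The exact two-sided sign-flip permutation test gave p = 0.125 for SLC2A1, SDHB and ATP5F1B, the smallest value that 4 horses allow, and p = 0.375 for CS. Adjusted over the 4 genes these exact p-values were 0.167 and 0.375, so no difference could pass. A lower ratio than GAPDH shows unequal change and not that GAPDH was unchanged. The order in all 4 horses holds for the brightest probe of each gene and loess. On median centring SLC2A1 minus GAPDH was -0.413, with 3 of 4 horses below 0 (exact p = 0.375), while SDHB and ATP5F1B were below GAPDH in all 4. With the dimmest probe of each gene the differences were -0.158 for SLC2A1, -0.785 for SDHB and -0.383 for ATP5F1B, each with horse 4 above 0. With the mean over probes SLC2A1 (-0.67) and ATP5F1B (-0.51) were below GAPDH in 3 of 4 horses. With Agilent's processed signals SLC2A1 minus GAPDH was -2.62.

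In order of the mean log2 ratio, the genes ran from SLC2A1 at -0.895 through SDHB at -0.83, ATP5F1B at -0.37 and CS at -0.22 to GAPDH at 0.27. Neighbours in this order lay within their spread over the 4 horses. SLC2A1 minus SDHB averaged -0.06 ± 0.46 on the log2 scale (SD, n = 4), SDHB minus ATP5F1B -0.47 ± 0.72, ATP5F1B minus CS -0.15 ± 0.66 and CS minus GAPDH -0.49 ± 0.58. Among 10 pairs, 5 had the same order in all 4 horses by these probes: GAPDH above ATP5F1B, SDHB and SLC2A1, and CS above SDHB and SLC2A1. The lowest exact p adjusted over the 10 pairs was 0.25.

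Of 16 other transcripts listed as in common use as references, 5 were measured and 0 were called. As 12.0% of all targets with a symbol were lower and 7.59% higher, 0 of 5 does not show that these transcripts were stable. ACTB was at -0.34 ± 0.45 (SD, n = 4), B2M at -0.35 ± 0.73, RPLP0 at -0.03 ± 0.48, UBB at 0.33 ± 0.86 and EEF1A1 at -0.30 ± 0.14. Of these 5, EEF1A1 varied least between horses and UBB most, and the SD of GAPDH, 0.476, lay between them. EEF1A1 was nonetheless below 0 in all 4 horses, at -0.484, -0.228, -0.157 and -0.335 (limma unadjusted p = 0.0452, adjusted p = 0.15). Its 3 probes ran from -0.301 to 0.101.

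The named targets whose 4 log2 ratios were closest to those of SLC2A1, by Euclidean distance over the 4 horses among 790 targets, were CASP1 (0.378), CYP3A97 (0.429) and PRKAG2 (0.474). Their mean log2 ratios were -0.925, -0.832 and -0.979. For SDHB the closest were RSPO1 (0.44), RASSF5 (0.459) and MB21D2 (0.50), with mean log2 ratios of -0.983, -0.98 and -0.718.

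**Figure D5:**
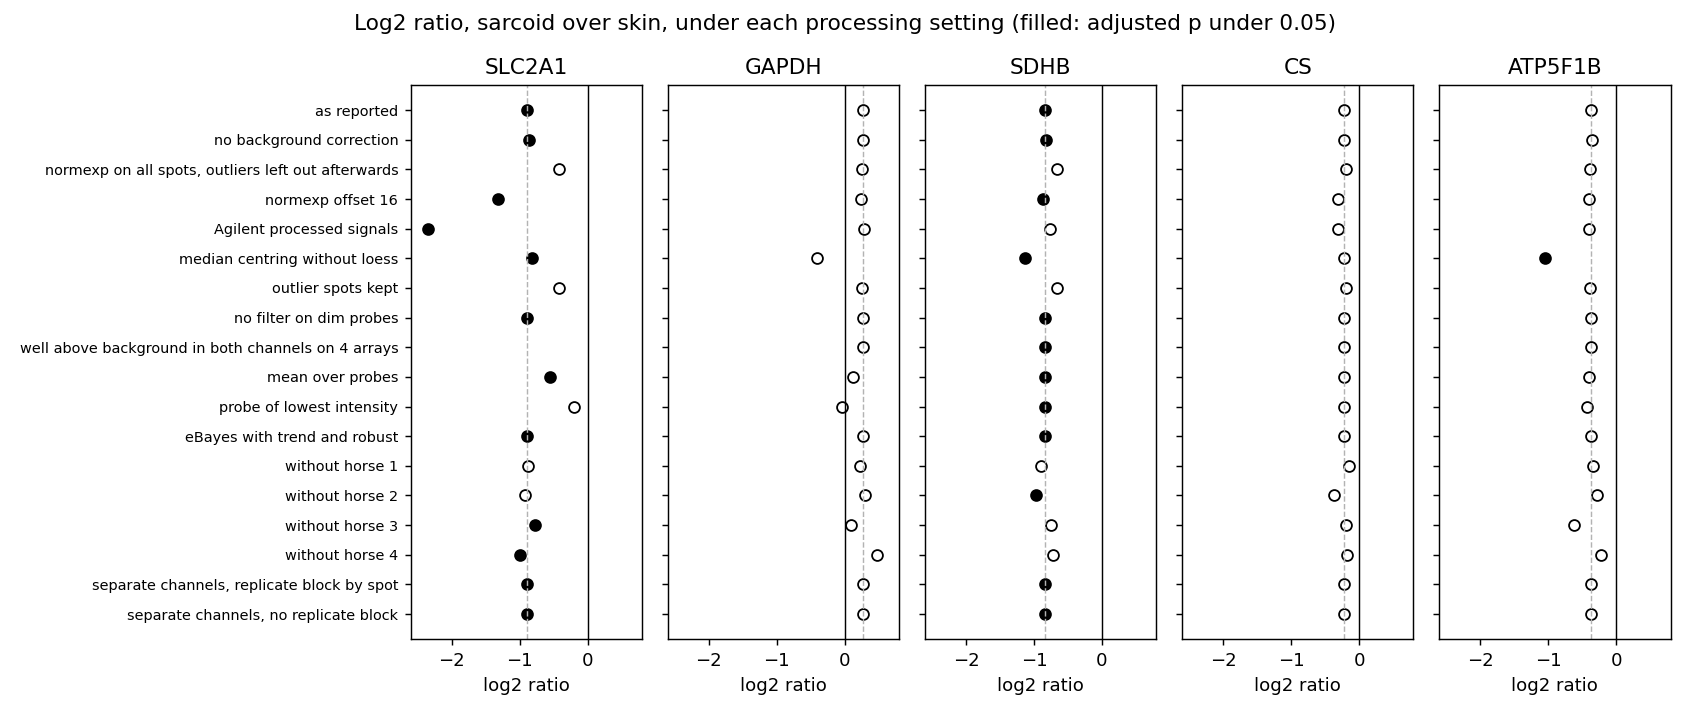
Log2 ratio of sarcoid over skin (horizontal axes) of each of the 5 genes under each processing setting or with a horse left out (rows), with filled circles where the limma adjusted p is under 0.05; the dashed line marks the reported value. SLC2A1 moves from -0.895 to -2.35 with Agilent's processed signals and to -0.42 with the background model fitted to all spots, while CS stays between -0.361 and -0.147.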

How the data were processed

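RNA of 4 sarcoids (Cy3) and of skin of the same 4 horses (Cy5) was measured on 4 two-colour arrays. Agilent Feature Extraction 11.5.1.1 made the deposited files, per the submitters' processing notes. They hold linear median spot and background intensity per channel, processed intensity (background-subtracted and dye-normalized), the log10 ratio of Cy5 over Cy3 and 0 or 1 flags per spot, per the file headers. The authors' value table held the same log10 ratio (largest difference 0).

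Here, outlier spots were left out, background was corrected with normexp (offset 50), loess was run within arrays with control spots at weight 0, and spots of a probe were averaged (limma 3.58.1, R 4.3.3). Leaving outlier spots out before the background fit, rather than after it, gives many more calls; the other order is given beside the counts and calls it changes. Channel levels are log2 intensity after Aquantile scaling of the 4 arrays. Each target (its brightest kept probe) and, separately, each kept probe was tested with lmFit and eBayes against 0, with Benjamini-Hochberg adjustment over all of them. The pairing by horse is inside each ratio. Differences from GAPDH were tested by exact sign-flip permutation. The fits were tested on simulated data. There, 29% of targets given a change of 1 and 78% of those given a change of 2 were recovered, with 4 false calls. A gene that did not pass is therefore not shown to be unchanged.

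RefSeq accessions matched a gene table of the horse (assembly TB-T2T) for 2332 of 3437 probes that carry one; its coordinates were not used because the array was designed on EquCab1, per the file headers. Targets without a symbol entered all fits. Genes are named by rule: the 5 genes, every measured gene of the energy and hypoxia lists (for lists over 8, the called ones and the 2 brightest others), and the 3 nearest patterns of SLC2A1 and SDHB. LDHA, LDHB, PKM, the reference transcripts and single cell markers are named outside that rule, after their values were seen. The genes and lists were chosen with earlier results of these data known. Alternatives covered background, normalization, outlier spots, filters, probe choice, model and each horse left out. All arrays share 1 slide, so no block for it was fitted.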

Additional observations from a re-analysis of the deposited data

Results flagged for a closer look

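In 74 sets of 4 values examined (the log2 ratios of the named genes and of each of the 28 probes, the differences from GAPDH, and the channel levels of the 5 genes), 7 had a horse far from the other 3, by the ratio of its gap to the whole range; chance gives about 1 in 20 such sets. The gap took up 0.972, 0.938, 0.948, 0.97 and 0.951 of the range for the GAPDH probes A_69_P004886, A_69_P004887, A_69_P004888, A_69_P004889 and A_69_P004890, in each case with horse 4 lowest, at log2 ratios of -1.72, -1.78, -1.85, -1.89 and -1.76. These probes share a gene and an array and are not separate findings. It was 0.871 for the ATP5F1B probe A_69_P113111, where horse 3 was highest at 0.363. It was 0.94 for HK2, where horse 3 was lowest at -0.277 and the others lay between 0.0187 and 0.0375.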

How the results depend on the processing

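The ratios of SLC2A1, SDHB, CS and ATP5F1B stayed below 0 under every alternative run. With the background model fitted to all spots, SLC2A1 was at -0.4207 and SDHB at -0.6665, with 93 targets higher and 147 lower, 229 probes higher and 391 lower, and 0 pathway genes higher and 1 lower; with outlier spots kept, the values were -0.4208, -0.6665, 94, 147, 230, 391, 0 and 1. These settings differ from the reported one in whether outlier spots entered the background fit. With Agilent's processed signals SDHB was at -0.7708, with 1878 targets and 3618 probes higher (48.1% of target calls on the higher side, against 37.1%), and with the authors' deposited log ratio the values were -0.7708, 1876 and 3616. Median centring put GAPDH at -0.4111, CS minus GAPDH at 0.1898 and ATP5F1B at -1.042 (passing), with 614 targets and 1360 probes higher (18.7% of target calls) and 0 pathway genes higher; the cause was not tested. With the dimmest probe of each gene SLC2A1 was at -0.2053 and GAPDH at -0.04782, and 0 pathway genes were higher, as with the mean over probes and with no filter on dim probes. A filter asking for both channels on 4 arrays left SLC2A1 unmeasured. With each horse left out, the range was -1.003 to -0.7779 for SLC2A1, -0.9677 to -0.7135 for SDHB, 389 to 820 targets higher and 1077 to 1415 lower, 856 to 1619 probes higher and 2151 to 2759 lower, and 0 to 1 pathway genes higher and 4 to 6 lower, the lowest target and probe counts being without horse 1. Fitting the channels separately left SDHB at a limma adjusted p of 0.00848 with the replicate block by spot and 0.0258 without it. Signal near background limits SLC2A1, whose probes were not well above background in the sarcoid of horse 4.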

Other observations

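Agreement between probes of a gene could be described for 2004 targets with at least 5 tested probes on all arrays. The median range of the log2 ratio over a target's probes was 0.142, 0.129, 0.139 and 0.152 in horses 1 to 4. GAPDH had a range of 0.213, 0.367, 0.297 and 1.60 in the same horses, and in horse 4 a smaller range was seen in 99% of these targets. ATP5F1B had 0.214, 0.275, 0.153 and 0.638. The median difference of a target's dimmer probes from its brighter ones was -0.000547, 0.000403, -0.00272 and 0.0321 in horses 1 to 4. A median over targets does not show whether part of them behaved like GAPDH. The sarcoid of horse 4 had the lowest median signal, 113.5, against 187, 153 and 172 in the sarcoids of horses 1 to 3. The cause of the low ratios of dim GAPDH probes in horse 4 was not tested.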
